A study of Mus musculus with 8 samples.

Results

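The Tribbles family of mice consists of the pseudokinase genes Trib1, Trib2 and Trib3. These 3 members were taken by name from 55358 genes of an RNA-seq series on mouse embryonic fibroblasts (MEFs), which are primary connective-tissue cells grown from embryos. All 3 were among the 13693 genes tested, that is, genes that reached 1 FPKM in 2 or more libraries. FPKM values are fragment counts scaled to transcript length and to sequencing depth, so levels of different genes can be compared. The series holds 8 libraries in 4 groups of 2. Wild-type (WT) MEFs and MEFs that carry the Arid5a-/- genotype were each cultured for 24 h either without interleukin-6 (IL-6) or with IL-6 at 100 ng/ml. Arid5a encodes an RNA-binding protein that is known to stabilise Il6 and other inflammatory transcripts. The series title names Trib3 and the Mek/Erk kinases next to a long noncoding RNA, AU021063, in breast cancer, and the fibroblasts analysed here are not tumour cells. The labels do not say how the Arid5a allele was made, or whether replicate libraries stem from different embryos or cultures. All p-values here thus rest on a spread between libraries that could be technical.

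Tribbles proteins have the fold of a protein kinase but little or no catalytic activity, and they act as scaffolds. A motif in their tail binds the ubiquitin ligase COP1 and brings it to substrates held by the pseudokinase domain, and for TRIB1 and TRIB2 the best-known substrate is the transcription factor C/EBPα. The same tail holds a site for the kinase MEK1, which links the family to Erk signalling, and TRIB3 is also known to bind AKT. TRIB3 is a textbook target of ATF4 and CHOP, the transcription factors of the response to amino-acid shortage and stress of the endoplasmic reticulum (ER).

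The sequence upstream of Trib3 is shown because Trib3 was the member with the largest genotype difference and its promoter is where ATF4 and CHOP are known to act. The 250 bases before the RefSeq start site lie at chr2:152344061-152344310 of GRCm38.p6, on the minus strand, and end directly before the start. Capitals mark the match to TGNTGCAAT, a widened form of TGATGCAAT, which is a composite site for ATF and C/EBP proteins.
Trib3: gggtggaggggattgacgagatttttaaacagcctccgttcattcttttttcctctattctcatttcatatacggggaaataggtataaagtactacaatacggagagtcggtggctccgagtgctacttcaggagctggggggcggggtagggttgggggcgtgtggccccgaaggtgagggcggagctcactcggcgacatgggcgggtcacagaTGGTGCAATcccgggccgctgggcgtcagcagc
Both strands were searched, and the match lay 24 bases before the start site. The widened form was chosen after this promoter had been seen, and every match to TGATGCAAT is also a match to it. It was present in 0.581% of 32851 promoter windows of the same length, against 0.167% for TGATGCAAT, which was not in the Trib3 window. TGNTGCAAT was also present in 3 of the 22 windows found for a list of ATF4 and CHOP targets, those of Psat1, Fgf21 and Aars. The palindrome TGACGTCA was in 1.55% of windows and TTCNNNGAA, the spacing bound by STAT proteins, in 7.02%, and neither was in the window of Trib3. The Trib2 window held none of these 4 patterns.

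The targeted gene, Arid5a, was at 18.73 and 15.89 FPKM in WT, 30.86 and 30.99 in IL-6-treated WT, 5.51 and 6.853 in Arid5a-/- and 8.474 and 8.146 in Arid5a-/- with IL-6. Its transcripts were thus lower in all 4 Arid5a-/- libraries than in all 4 WT libraries, at 35.7% and 26.9% of the WT mean without and with IL-6, but were not absent. The genotypes also differed in cell-type markers. All 5 mesothelial markers were higher in Arid5a-/- MEFs, against 36.4% of all tested genes without IL-6. Their summed level was 38.3 to 52.7 FPKM in the WT libraries and 1430 to 1470 in the others, and the mesothelial regulator Wt1 was listed at 0 in every WT library. Of 5 epithelial markers, 4 were tested and all 4 were higher, against the same 36.4% (summed 5.21 to 7.8 against 267 to 280 FPKM). Most of the higher sum was Krt19, at 245.8 to 259.3 FPKM in Arid5a-/-, which is also counted among the mesothelial markers. The untested marker Epcam had means of 0.6245 FPKM in untreated WT and 0.6268 in untreated Arid5a-/-. Endothelial markers (summed 0.0689 to 0.181 against 10.8 to 12 FPKM) and adipocyte markers (7.14 to 33.7 against 103 to 110 FPKM) were higher in sum too, though the endothelial genes Pecam1 and Cdh5 and the adipocyte genes Adipoq and Plin1 were near 0 throughout. The adipocyte gene Fabp4 went the other way, from 6.437 and 7.45 FPKM in untreated WT to 0.187 and 0.03384 in untreated Arid5a-/-. All 9 fibroblast markers were detected in both genotypes (summed 7570 to 8940 against 5460 to 5730 FPKM). Without IL-6, 3 of them were higher in Arid5a-/- (33.3%, against 36.4% of all tested genes) and 5 lower (55.6% against 34.5%). The leukocyte gene Ptprc and the macrophage gene Adgre1 were at or near 0 in all libraries. Of the 6 macrophage markers, Cd68 alone was tested. It was at 1.432 to 3.04 FPKM and was lower in untreated Arid5a-/- by -0.43, with 34.5% of all tested genes lower. Csf1r, too low to test, had means of 0.04915 FPKM in untreated WT and 0.2462 in untreated Arid5a-/-. Xist was near 0 in WT and the Y-linked genes near 0 in Arid5a-/- MEFs. Without IL-6 the mean of Xist was 0.003289 FPKM in WT and 56.94 in Arid5a-/-, and that of Ddx3y was 35.61 and 0. This is the pattern of male WT cells and female Arid5a-/- cells, and it held in all 8 libraries. In every genotype comparison below, the Arid5a genotype thus cannot be told apart from sex or cell line. The part these differences play in the genotype results below was not tested, and in bulk RNA a change in the share of cells and a change in RNA per cell cannot be told apart.

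Trib3 was about 4 times higher in Arid5a-/- MEFs than in WT and did not respond detectably to IL-6 in WT. Its levels were 4.323 and 4.554 FPKM in WT, 4.22 and 4.447 in IL-6-treated WT, 16.7 and 18.5 in Arid5a-/- and 13.88 and 15.17 in Arid5a-/- with IL-6. The lowest Arid5a-/- library was thus far above the highest WT library, and within Arid5a-/- both IL-6 libraries were below both untreated ones. Without IL-6 the mean was 4.438 ± 0.163 FPKM (SD, n = 2) in WT and 17.6 ± 1.27 in Arid5a-/-, a ratio of 3.96. The difference on the log2(FPKM + 1) scale was 1.77 ± 0.072 (SE), with a 95% interval of 1.60 to 1.94 (limma, adjusted p = 4.2e-07). On this scale differences of low genes are understated. With IL-6 the means were 4.333 ± 0.16 and 14.53 ± 0.916 FPKM (SD, n = 2), a ratio of 3.35 and a log2 difference of 1.54 (1.37 to 1.71; limma, adjusted p = 8.6e-07). A genotype call by itself was common here: 71% of all tested genes passed an adjusted p of 0.05 without IL-6 and 71.7% with it. By size, Trib3 was higher than 95.9% of tested genes in the difference without IL-6.

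**Figure D1:**
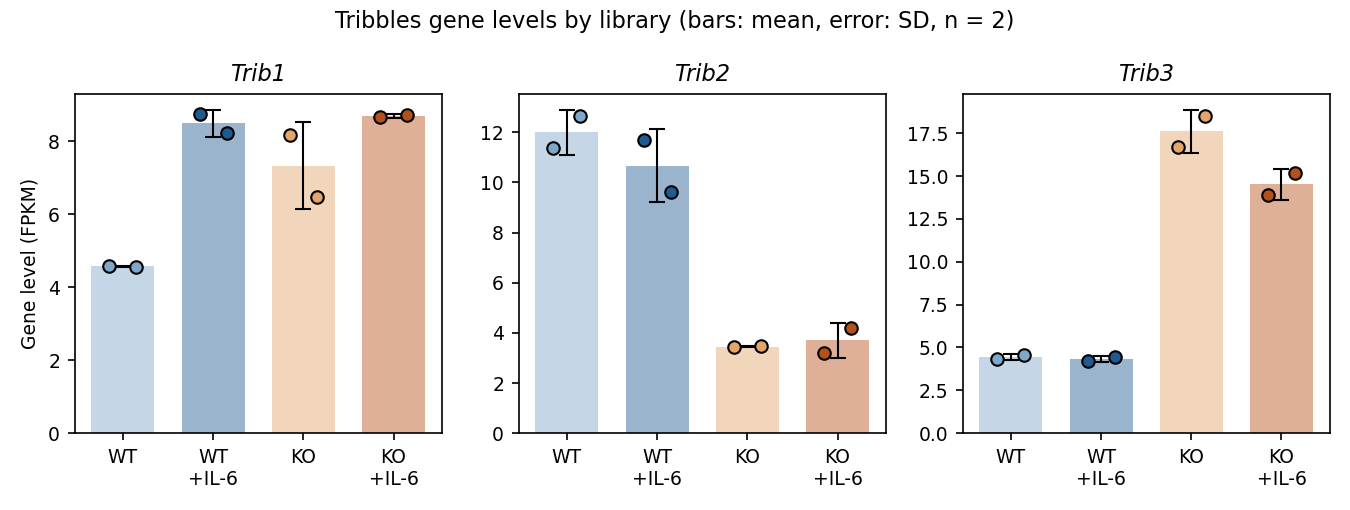
FPKM of Trib1, Trib2 and Trib3 (vertical axes, from 0, a separate scale per gene) in WT and Arid5a-/- (KO) MEFs without and with IL-6; points are the 2 libraries of a group, bars their mean and error bars the SD. Trib1 is lowest in untreated WT at 4.564 FPKM, Trib2 falls from 12 FPKM in WT to 3.451 in KO, and Trib3 rises from 4.438 to 17.6.

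The IL-6 response of Trib3 was small in each genotype. In WT it was -0.03 on the log2 scale (-0.20 to 0.14; limma, adjusted p = 0.846). In Arid5a-/- MEFs the mean after IL-6 was 82.6% of the untreated mean. That difference, -0.26 (-0.43 to -0.09), had an unadjusted p of 0.00836 in limma, a model over all genes, and did not pass after adjustment (adjusted p = 0.465). The difference between the genotypes in the IL-6 response was -0.23 (-0.47 to 0.01; limma interaction term, adjusted p = 0.252).

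Trib2, the member best known as an oncogene in myeloid leukaemia, moved the opposite way between the genotypes. Its levels were 11.36 and 12.64 FPKM in WT, 11.71 and 9.637 in IL-6-treated WT, 3.435 and 3.468 in Arid5a-/- and 3.216 and 4.191 in Arid5a-/- with IL-6. Every WT library was above every Arid5a-/- library, and within each genotype the treated and untreated libraries overlapped. The mean of 12 ± 0.901 FPKM (SD, n = 2) in WT compared with 3.451 ± 0.0235 in Arid5a-/-, or 28.8% of the WT mean. The log2 difference was -1.54 (-1.83 to -1.26; limma, adjusted p = 1.6e-05), lower than that of 95.3% of tested genes. With IL-6, Trib2 in Arid5a-/- was at 34.7% of WT, a log2 difference of -1.31 (-1.60 to -1.03; limma, adjusted p = 3.9e-05). No change of Trib2 with IL-6 passed the test: it was -0.16 (-0.45 to 0.13) in WT and 0.07 (-0.22 to 0.36) in Arid5a-/- (limma, adjusted p = 0.443 and 0.938). With a library left out the WT value ran from -0.29 (without the first treated WT library) to -0.03 (without the second). The difference between these responses was 0.23 (-0.17 to 0.64; limma interaction term, adjusted p = 0.503), and 0.08 to 0.38 with a library left out.

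Trib1, whose product is known for controlling C/EBPα levels in the liver and in myeloid cells, was the only member whose IL-6 response passed the test. Its levels were 4.58 and 4.548 FPKM in WT, 8.747 and 8.212 in IL-6-treated WT, 8.167 and 6.48 in Arid5a-/- and 8.652 and 8.721 in Arid5a-/- with IL-6. The 2 untreated WT libraries were the lowest of the 8, and the other 3 groups lay between 6.48 and 8.747 FPKM. In WT, IL-6 raised Trib1 from 4.564 ± 0.0228 to 8.48 ± 0.378 FPKM (SD, n = 2), a ratio of 1.86 and a log2 difference of 0.77 ± 0.095 (SE; limma, adjusted p = 0.00215). Of all tested genes, 15.7% passed in this comparison, 8.3% as higher and 7.41% as lower, and Trib1 was higher than 98.4% of them in log2 difference.

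Without IL-6, Trib1 was also higher in Arid5a-/- than in WT, at 7.323 ± 1.19 FPKM (SD, n = 2) against 4.564, a log2 difference of 0.57 (0.35 to 0.80; limma, adjusted p = 0.00103). This comparison and the one of IL-6 in WT share the untreated WT libraries, so they are not independent of each other. With IL-6 the genotypes overlapped, with a difference of 0.03 (-0.19 to 0.26; limma, adjusted p = 0.78). In Arid5a-/- MEFs the IL-6 response of Trib1 was 0.23 (0.00 to 0.45), a ratio of 1.19, with an unadjusted p of 0.0478 and an adjusted p of 0.666 in limma. It was 0.37 without the first and 0.08 without the second untreated Arid5a-/- library. Only 3 genes, 0.0219% of those tested, passed in this comparison, against 1025 genes at an unadjusted p under 0.05, and no member was among the 3. The interaction, the response in Arid5a-/- minus that in WT, was -0.54 (-0.86 to -0.23) for Trib1 with an adjusted p of 0.0647 in limma, so a difference between the genotypes in the response did not pass. It passed without the second untreated Arid5a-/- library, at -0.69 and an adjusted p of 0.021. In this term 6.06% of tested genes passed and none of the 3 members did.

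**Figure D2:**
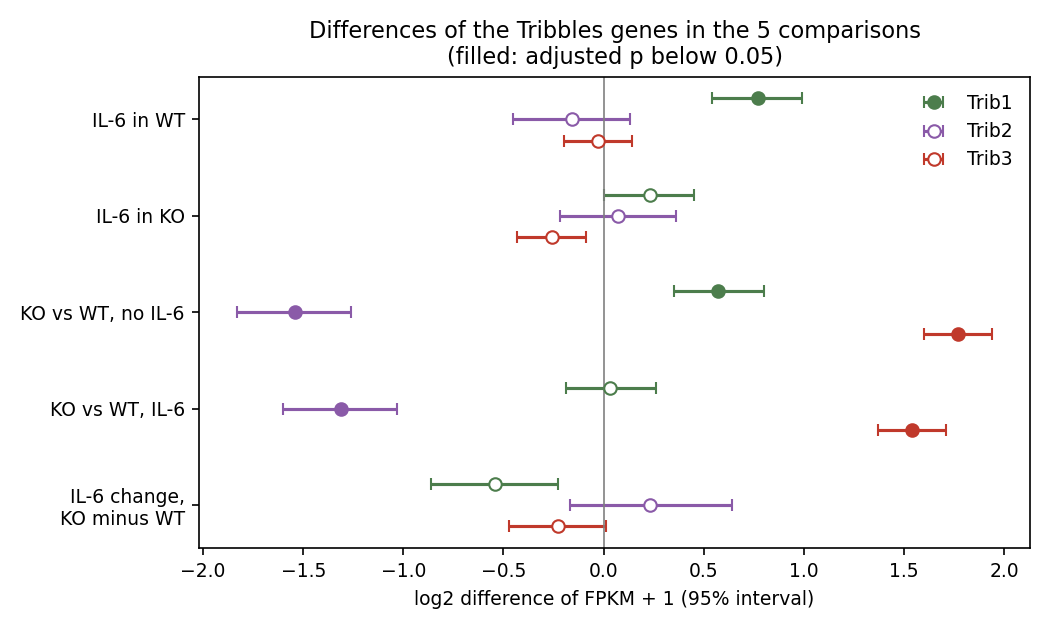
Differences in log2(FPKM + 1) of Trib1, Trib2 and Trib3 (horizontal axis) in the 4 comparisons of groups and in the difference between the IL-6 responses (KO minus WT), with 95% intervals; filled points have an adjusted p below 0.05. Trib3 stands at 1.77 and 1.54 and Trib2 at -1.54 and -1.31 in the genotype comparisons, and Trib1 at 0.77 is the only filled point among the IL-6 responses.

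Because the members moved in opposite directions, their order turned over between the genotypes. The sum of the 3 was 20.27 and 21.74 FPKM in WT, 24.68 and 22.3 in IL-6-treated WT, 28.3 and 28.44 in Arid5a-/- and 25.75 and 28.09 in Arid5a-/- with IL-6. In the 4 WT libraries Trib2 held the largest share of this sum, 43.2% to 58.1%, and in the 4 Arid5a-/- libraries it held the smallest, 12.1% to 14.9%. Trib3 held 17.1% to 21.3% in WT and 53.9% to 65% in Arid5a-/-. The ratio of Trib3 to Trib2 was 0.36 to 0.461 in the WT libraries and 3.62 to 5.33 in the others. In untreated WT, Trib1 and Trib3 did not differ beyond their spread (4.564 against 4.438 FPKM), and after IL-6 in WT the levels of Trib1 (8.212 and 8.747 FPKM) were still below both Trib2 values. In Arid5a-/- all 4 libraries had the order Trib3, Trib1, Trib2. The members were of low to middle level: of the tested genes of a library, 22% to 50.7% lay below Trib2, 28.2% to 41.4% below Trib1 and 27.2% to 60.1% below Trib3.

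Single transcripts gave the same picture, with a single form accounting for most of each gene. Trib1 lies at chr15:59648350-59657099 (plus strand), Trib2 at chr12:15791727-15816922 (minus strand) and Trib3 at chr2:152337422-152344032 (minus strand) in GENCODE M21 on GRCm38, with 2, 4 and 3 transcripts in the files. Trib1-201, with 3 exons and 1116 coding bases, held 97.2% to 98.8% of Trib1. It rose with IL-6 in WT by 0.76 on the log2 scale and was higher in untreated Arid5a-/- by 0.56 (limma over 33179 transcripts, adjusted p = 0.0197 and 0.0062). Among these transcripts 2.86% passed for IL-6 in WT, and 41.1% and 43.1% passed for genotype without and with IL-6. The other form, Trib1-202, was at 0.05648 to 0.2408 FPKM and was not tested.

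Trib3-201, with 4 exons and 1062 coding bases, held 90.4% to 100% of Trib3. It was at 4.323 and 4.118 FPKM in WT, 4.22 and 4.284 in IL-6-treated WT, 16.7 and 17.95 in Arid5a-/- and 13.88 and 14.46 in Arid5a-/- with IL-6. The genotype differences were 1.81 and 1.53 on the log2 scale without and with IL-6 (limma, adjusted p = 7.0e-06 and 1.3e-05), with no overlap between the genotypes. Trib3-202, which has no coding sequence, was listed at 0 in 4 libraries and reached 0.7171 FPKM, and Trib3-203, a form with a retained intron, was above 0 only in the second untreated Arid5a-/- library.

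Trib2 was the member with the most mixed forms. Trib2-201, with 1029 coding bases, was at 9.603 and 10.01 FPKM in WT, 8.633 and 8.438 in IL-6-treated WT, 2.686 and 2.877 in Arid5a-/- and 2.89 and 2.86 in Arid5a-/- with IL-6, or 68.2% to 89.9% of the gene. Its SD between replicates was smaller than that of the gene sum in 3 of the 4 groups (0.0212 to 0.284 FPKM over all 4), and its genotype differences were -1.51 and -1.30 (limma, adjusted p = 2.1e-05 and 3.7e-05). In WT both treated libraries were below both untreated ones for this form, a difference of -0.18 (-0.35 to -0.01) that did not pass (limma, adjusted p = 0.276). Trib2-204, a shorter form with 621 coding bases, ranged from 0.3261 to 2.632 FPKM, and its genotype difference without IL-6 of -0.86 (-1.85 to 0.13) did not pass (limma, adjusted p = 0.143). Trib2-202 reached 0.4485 FPKM at most and Trib2-203 was listed at 0 throughout. Read back from the FPKM steps of low values, the main forms rested on about 756 to 1663 fragments for Trib1-201, 400 to 1741 for Trib2-201 and 306 to 1362 for Trib3-201, at an estimated 37100000 to 46900000 fragments per library.

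The nearest relative of the family, Stk40 (also called SgK495), a pseudokinase that likewise binds COP1, had no detectable genotype difference without IL-6 (0.04, -0.11 to 0.19; limma, adjusted p = 0.596). It was at 8.425 and 7.7 FPKM in WT, 9.9 and 9.567 in IL-6-treated WT, 8.047 and 8.569 in Arid5a-/- and 7.984 and 8.129 in Arid5a-/- with IL-6. The 2 WT libraries with IL-6 were the highest of the 8. The response in WT of 0.25 (0.10 to 0.39) passed at an adjusted p of 0.04 in limma but not without any of the 8 libraries in turn (adjusted p up to 0.172), with a replicate block (0.0687), at equal total FPKM (0.0731) or without the filter (0.0722). With IL-6 it was lower in Arid5a-/- than in WT, with a difference of -0.24 (limma, adjusted p = 0.00906), a call that was lost without the first WT library with IL-6 (adjusted p = 0.0509).

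AU021063, the noncoding RNA that the series title sets beside Trib3, was scarcely detected, and so its pattern can be set beside that of Trib3 only as a description. It was at 0.4112 and 0.3333 FPKM in WT, 1.453 and 0.6977 in IL-6-treated WT. In Arid5a-/- MEFs it was listed at 0 in 3 of the 4 libraries and was at 0.1257 FPKM in the second library with IL-6. At most about 23 fragments stood behind any of these values, and the gene did not reach the level needed for the test. It overlaps A330009N23Rik on the opposite strand, and the sources used here do not say whether strand was used in counting. In these libraries AU021063 was highest in IL-6-treated WT, where Trib3 was at 4.22 and 4.447 FPKM, and lowest in Arid5a-/- MEFs, where Trib3 was highest. RNA levels say nothing of the stability of the Trib3 protein, which was not measured.

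Genes that ATF4 and CHOP are known to induce were mostly higher in Arid5a-/- MEFs, as Trib3 was. Of 28 tested members of the list, which does not hold Trib3, 20 rose, 5 fell and 3 did not pass without IL-6, with a median difference of 0.57 against 0.01 over all tested genes. With IL-6, 19 rose and 6 fell, with a median of 0.49. Over all genes 36.4% were higher and 34.5% lower without IL-6, and 36.9% and 34.8% with it. The 5 with the smallest p were Asns, the asparagine synthetase, Gars, a glycyl-tRNA synthetase, Aldh18a1 of proline synthesis, the mitochondrial folate enzyme Mthfd2 and the alanine transaminase Gpt2. Asns was at 10.83 and 10.07 FPKM in WT and 53.1 and 53.12 in Arid5a-/-, a log2 difference of 2.24 (limma, adjusted p = 1.2e-08). The other 4 differed by 1.61, 1.57, 1.36 and 1.82 in the order named. Members of the list that fell were Stc2 (-1.06), a secreted glycoprotein, Ddit4 (-0.93), an inhibitor of mTORC1, Wars, Sesn2 and Slc7a3. These 5 were named after their values were seen, and Sesn2 lost its call without the first untreated WT library (limma, adjusted p = 0.0698). The list therefore did not move as a unit, and among the 5 genes with the smallest p, Asns and Gpt2 differed by more than Trib3 (1.77).

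The genes of the branch that holds ATF4 and CHOP did not share a direction. Of 14 tested genes of the eIF2α kinase and ATF4 branch, 6 were higher and 6 lower without IL-6, 42.9% each against 36.4% and 34.5% of all tested genes, and the median was -0.05 against 0.01. The number lower was 4 with a replicate block or at equal total FPKM and 4 to 5 with any of the 8 libraries left out. Atf4 was 1.38 times higher in untreated Arid5a-/- than in WT (127.1 and 125.6 against 174 and 175.9 FPKM), a log2 difference of 0.47 (limma, adjusted p = 2.6e-05). Ddit3, which encodes CHOP, was lower, at 83.8 and 82.8 FPKM in WT and 47.87 and 49.88 in Arid5a-/-, a difference of -0.76 (limma, adjusted p = 2.8e-05). Atf5, another bZIP factor of this response, differed by 1.66 and Eif2ak3, the ER stress kinase PERK, by 1.35, whereas Nupr1 differed by -0.53. ATF4 is regulated mainly at translation, which these data do not measure.

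**Figure D3:**
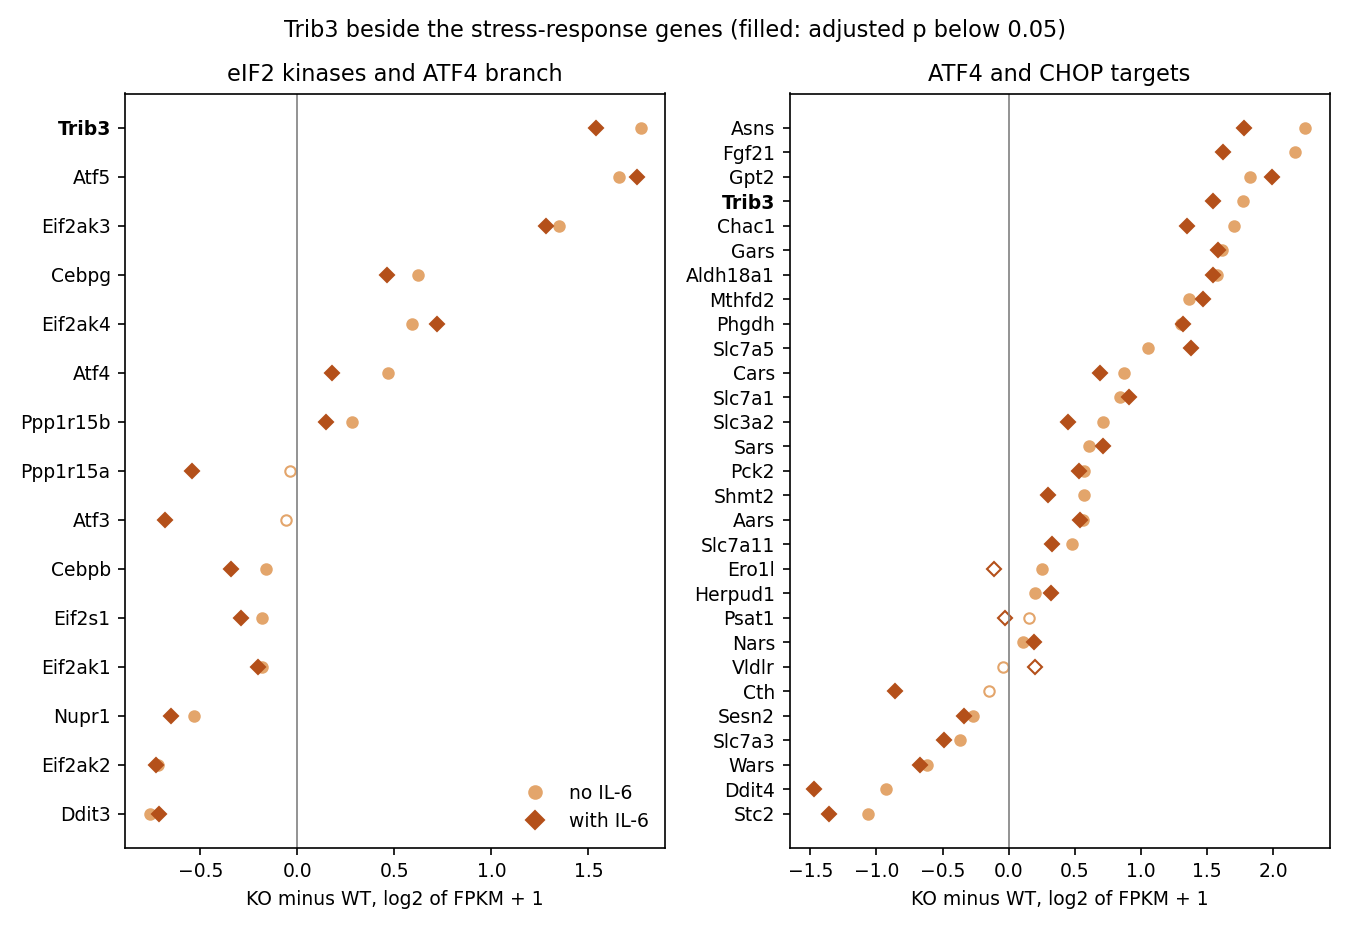
Difference between KO (Arid5a-/-) and WT in log2(FPKM + 1) (horizontal axis) for each tested gene of the eIF2α kinase and ATF4 branch (left) and of the ATF4 and CHOP target list (right), with Trib3 in bold; circles are without and diamonds with IL-6, filled where the adjusted p is below 0.05. Trib3, at 1.77 and 1.54, lies near the top of both panels, Asns at 2.24 is above it, and Ddit3 at -0.76 and Stc2 at -1.06 lie to the left of 0.

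Most chaperones and folding enzymes of the ER were also higher in Arid5a-/- MEFs. Of 18 tested genes, 14 were higher (77.8%, against 36.4% of all tested genes), 2 lower (11.1% against 34.5%) and 2 not passed without IL-6, with a median of 0.35 against 0.01 over all genes. Of the lower 2, named after their values were seen, Creld2 (-0.16) lost its call without the first untreated library of either genotype, and Pdia6 (-0.38) kept it. Pdia4 differed by 1.46 and the transcription factor Xbp1 by 1.38 (limma, adjusted p = 5.5e-08 and 7.4e-08), followed by Edem1, Atf6 and Pdia3. With IL-6 in WT, 4 of the 28 ATF4 and CHOP targets rose and 4 fell, 14.3% each against 8.3% and 7.41% of all tested genes. The number that fell was 1 to 3 with any of the 8 libraries left out and 8 at equal total FPKM, and the number that rose was 2 to 4 with a library left out. Of the 18 ER genes none passed with IL-6 in WT in limma, against 15.7% of all tested genes. An unadjusted p under 0.05 was found for 4 of the 18, and for 3993 of all 13693 tested genes. With IL-6 in Arid5a-/- MEFs none of the 28 targets passed in limma, but only 0.0219% of all tested genes did. At an unadjusted p under 0.05 there were 8 of the 28, and 1025 of all 13693 tested genes. Of the 28 values, 27 lay below 0, as the value of Trib3 did, with a median of -0.11 against 0.00 over all tested genes.

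The IL-6 treatment itself was visible in known targets of STAT3, and Stat3 was one of the genes nearest to Trib1. In WT, 9 of 10 checked response genes rose (90%, against 8.3% of all tested genes). Their median was 1.19, and Timp1 (1.56) and Socs3 (1.35) were among them. In Arid5a-/- MEFs, where only 0.0219% of all tested genes passed, none of the 10 did in limma. An unadjusted p under 0.05 was found for 9 of the 10, and for 1025 of all 13693 tested genes. All 10 values were above 0, with a median of 0.32. Il6ra, the gene for the IL-6 receptor chain, was at 9.307 and 9.216 FPKM in WT and 1.48 and 1.593 in Arid5a-/- (log2 difference -2.02; limma, adjusted p = 1.5e-07); it was chosen after its values were seen. The part of this lower receptor level in the IL-6 response of Trib1 was not tested.

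Direct partners of the Tribbles proteins passed for genotype about as often as other genes. Of 21 tested partners and substrates, 8 were higher (38.1%, against 36.4% of all tested genes), 7 lower (33.3% against 34.5%) and 6 not passed without IL-6, with a median of 0.04 against 0.01 over all genes. Cop1, the ubiquitin ligase that the Tribbles tail recruits, was at 49.82 and 54.78 FPKM in WT and 93.46 and 93.71 in Arid5a-/-, a log2 difference of 0.83 (limma, adjusted p = 1.6e-04). Its adaptor partner Ddb1 differed by 0.86 and Det1 by 0.21, which did not pass (limma, adjusted p = 0.149). Of the kinases bound by TRIB3, Akt2 was higher by 0.85 while Akt1 differed by -0.41, and Foxo3, a transcription factor downstream of AKT, by -0.72 (limma, adjusted p = 4.5e-05, 0.0013 and 5.3e-06). Map2k1 and Map2k2, the genes for MEK1 and MEK2, were lower in Arid5a-/-, with differences of -0.23 and -0.62. Of the substrates, Cebpb rose with IL-6 in WT by 0.68 (limma, adjusted p = 4.5e-04), and Cebpa stayed under 1 FPKM in group means and was not tested.

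Downstream of MEK and Erk, several feedback genes were higher in Arid5a-/- MEFs. Of 16 tested outputs and feedback genes, 9 were higher (56.2%, against 36.4% of all tested genes), 4 lower (25% against 34.5%) and 3 not passed without IL-6, with a median of 0.21 against 0.01 over all genes. With IL-6, 8 were higher (50% against 36.9%) and 6 lower (37.5% against 34.8%), with a median of 0.14. The phosphatase genes Dusp4 (2.92), Dusp6 (2.29) and Dusp5 (2.09), which encode negative feedback on Erk, and Spry2 (1.15) were higher, while the cyclin gene Ccnd1 (-2.05) was lower. Fosl1, named after its values were seen, was lower too, at 7.09 and 7.072 FPKM in untreated WT and 1.185 and 1.846 in untreated Arid5a-/-. Dusp6 rose with IL-6 in WT, from 4.751 and 5.651 to 10.15 and 9.281 FPKM, and was at 30.32 and 28.02 in untreated Arid5a-/-. In the same WT comparison Ier3 (0.84) and Egr1 (0.28) rose, and Ccnd1 (-1.30) and Spry1 (-0.64) fell. In all, 5 of the 16 rose (31.2%, against 8.3% of all tested genes; 3 to 5 with a library left out) and 2 fell (12.5% against 7.41%). Egr1 lost its call without the second untreated WT library (limma, adjusted p = 0.0598). Kinase activity was not measured.

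**Figure D4:**
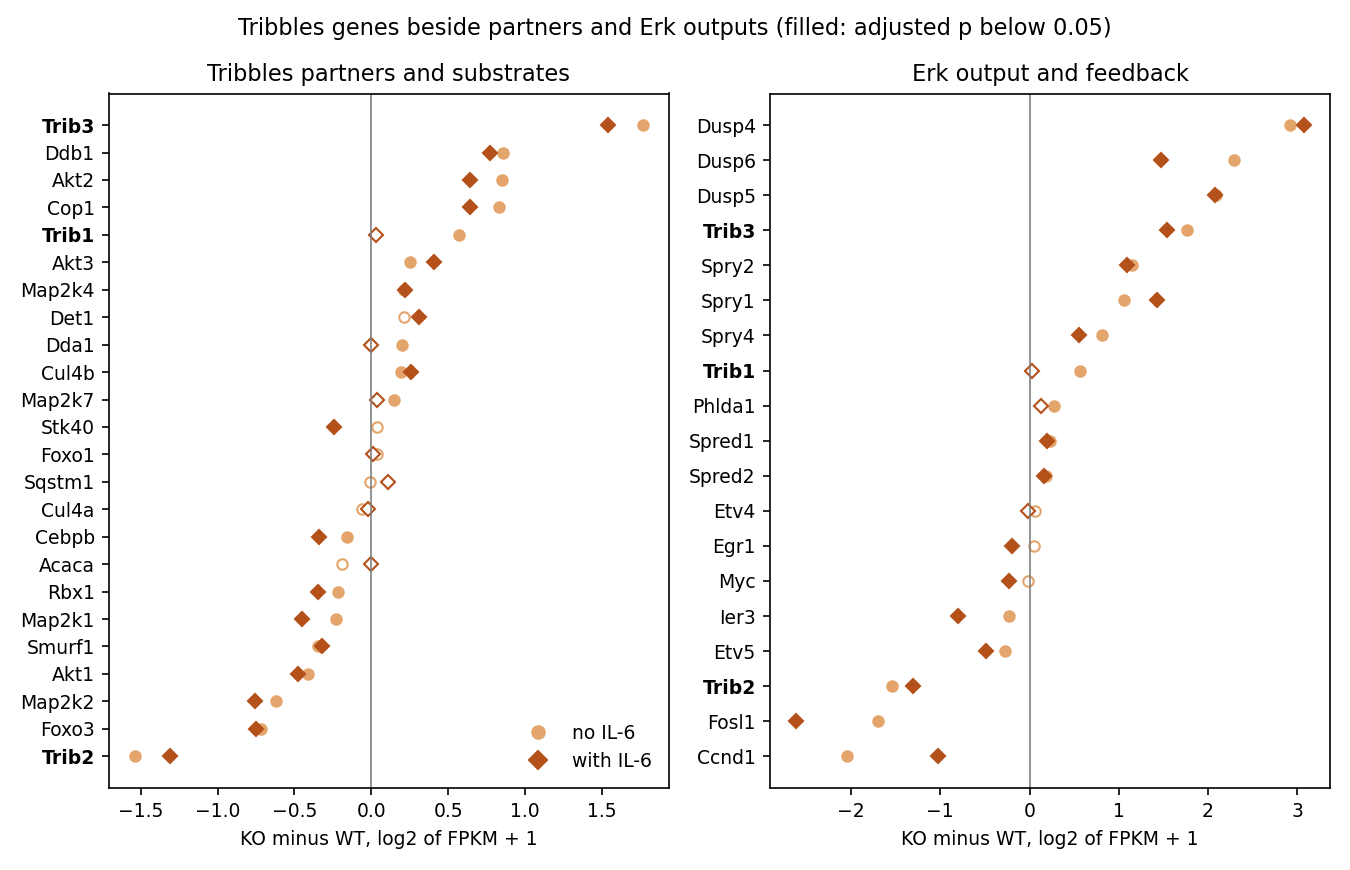
Difference between KO (Arid5a-/-) and WT in log2(FPKM + 1) (horizontal axis) for tested partners and substrates of the Tribbles proteins (left) and for Erk output and feedback genes (right), with the 3 Tribbles genes in bold; circles are without and diamonds with IL-6, filled where the adjusted p is below 0.05. Among the partners no gene lies as far from 0 as Trib3 (1.77) or Trib2 (-1.54), and among the Erk genes Dusp4 (2.92) and Ccnd1 (-2.05) lie at the ends without IL-6.

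The tested genes with the profile nearest to each member over the 8 libraries were found from the distance between centred log2(FPKM + 1) values, and Pearson's r is given as a description over 8 libraries that share groups. Nearest to Trib1 were Sdc4 (distance 0.247, r = 0.966), a cell-surface proteoglycan, Stat3 (0.253, r = 0.968), Klf9 and C1galt1. Like Trib1, Stat3 was lowest in the untreated WT libraries, at 41.36 and 40.05 FPKM, against 59.53 to 69.5 in the other 6. For Sdc4 the untreated WT libraries were at 75.38 and 75.43 FPKM and the other 6 at 111.7 to 131.7. Nearest to Trib2 were Sh2d3c (0.266, r = 0.995), the centromere gene Cenpp, Lrig3 and the transcription factor gene Ets2. Nearest to Trib3 were Nxph3 (0.171, r = 0.997), the folate transporter gene Slc46a1, Kank4 and Creb3l1, an ER-bound transcription factor (0.218, r = 0.996). Without IL-6, Nxph3 and Kank4 were near 0 in WT (means of 0.1558 and 0.08399 FPKM) and at 2.774 and 2.656 in Arid5a-/-. Their nearness to Trib3 depends on the log2(FPKM + 1) scale, which understates differences of low genes. Creb3l1 was at 15.4 and 15.02 FPKM in WT and 48.71 and 52.71 in Arid5a-/-, a larger level than Trib3 with a like difference of 1.67.

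**Figure D5:**
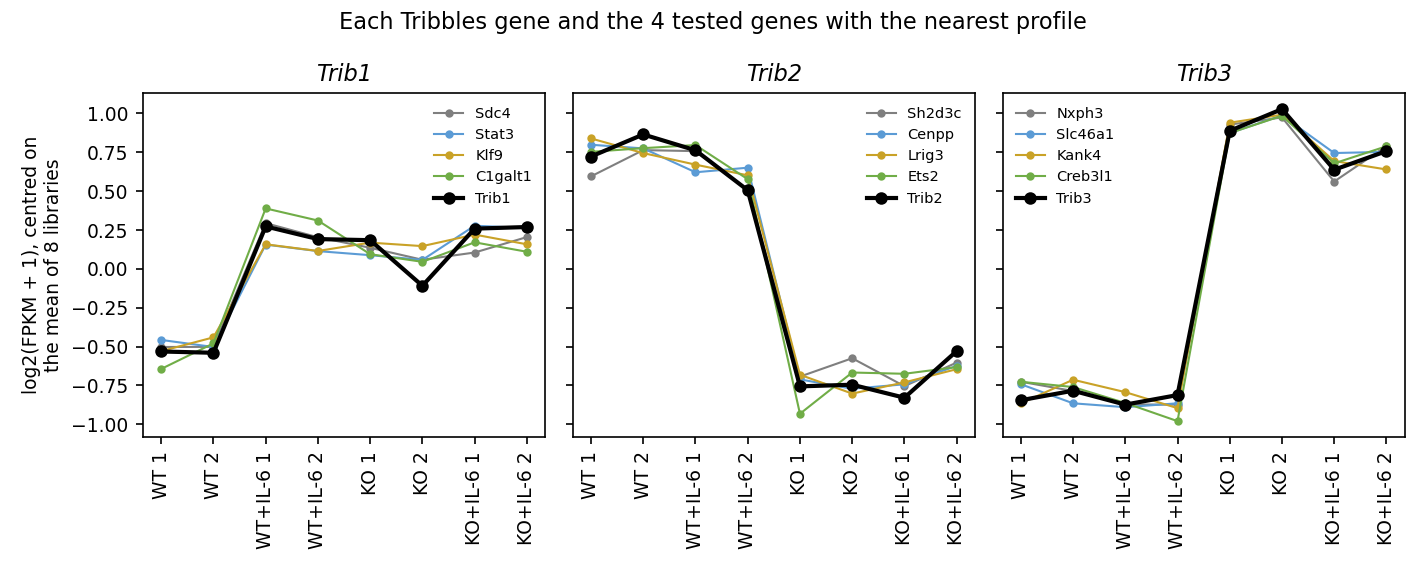
Centred log2(FPKM + 1) (vertical axis) in the 8 libraries (horizontal axis; lines only guide the eye between libraries, which have no order within a group) for each Tribbles gene in black and the 4 tested genes with the nearest profile. Trib1 and its neighbours are low in the 2 untreated WT libraries alone, Trib2 steps down and Trib3 steps up between the genotypes.

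The nearest annotated genes on either side of the members were mostly at or near 0. The tested genes beside Trib3, Rbck1 and Sox12, were higher in Arid5a-/- MEFs, as were 36.4% of all tested genes without IL-6. They are given as a description, and a shared effect on the locus was not tested. Next to Trib3, Rbck1, a ubiquitin ligase subunit gene 4769 bp away, was higher in Arid5a-/- by 0.35 without IL-6 and 0.24 with it (limma, adjusted p = 0.00126 and 0.00897); the second call was lost without the second Arid5a-/- library with IL-6 (adjusted p = 0.0538). On the other side Gm14164 was listed at 0 in 7 libraries, and the next tested gene there, Sox12, 49579 bp from Trib3 and named after its values were seen, was at 4.347 and 3.724 FPKM in WT and 27.73 and 30.5 in Arid5a-/-. Sox12 thus rose by more than Trib3 did, with a log2 difference of 2.58 (limma, adjusted p = 1.5e-07). Gm5432, a noncoding gene that starts 81 bp from Trib2 on the opposite strand, was at 0.03403 to 0.08265 FPKM in the 4 WT libraries and listed at 0 in the 4 Arid5a-/- libraries, too low to test. The neighbours of Trib1, Gm36677 and Gm20150, were listed at 0 in every library. The nearest tested gene, Nsmce2, 46666 bp from Trib1 and also named after its values were seen, was lower in untreated Arid5a-/- than in WT, with a difference of -0.52 (limma, adjusted p = 4.1e-05), where Trib1 was higher.

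In their 3′ untranslated regions the members differed in the pentamer ATTTA, the core of AU-rich elements, which mark many short-lived transcripts. Trib2-201 held 6 copies in 1881 bases, 3.19 per kilobase, and 14.4% of 11643 genes held as many. Trib1-201 held none in 2398 bases and Trib3-201 none in 785 bases, against a median of 1 over genes. A count of these letters is a description and says nothing of binding by Arid5a.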

How the data were processed

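Per the labels' protocols, an RNeasy kit served for RNA isolation and a stranded TruSeq mRNA kit for the libraries. The deposited values were FPKM per transcript, which the authors made with HISAT2 and Cufflinks 2.2.1 on GRCm38.p6, per the submitters' processing notes. Whether strand was used in counting is not given in the sources used here. Total FPKM per library was 536816 to 584995, and depth was read from the steps of low values, of which 90.4% to 92.4% lay within 0.1 of a whole fragment. Values of the 142869 transcripts were summed to genes by name. Genes that reached 1 FPKM in 2 or more of the 8 libraries were tested on log2(FPKM + 1) in limma 3.58.1 (R 4.3.3), with a mean for each of the 4 groups, 4 residual degrees of freedom, an intensity trend and p-values adjusted by Benjamini-Hochberg over all 13693 genes, and passed at an adjusted p of 0.05. The script was tested on simulated data. Positions came from GENCODE M21 and the promoter from RefSeq on GRCm38.p6. No 2 libraries were identical, and r within groups was 0.9927 to 0.9935.

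The members and gene lists were chosen with earlier results of these data known. Named genes were the members with every transcript, Stk40, Arid5a and AU021063, in each list up to 5 genes with the smallest p and any direct partner where described, the 4 genes nearest to each member in profile, and the flanking genes. Other pseudocounts, scalings, filters, fits and left-out libraries were tried as alternatives.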

Additional observations from a re-analysis of the deposited data

Results flagged for a closer look

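No Tribbles gene had an IL-6 response that differed between the genotypes past the threshold, but 14 of the genes named by rule beside them did, as did further members of the lists that are not described here. The values below are the interaction term, the IL-6 response in Arid5a-/- minus that in WT, on the log2(FPKM + 1) scale, each with an adjusted p from limma over all genes.

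Both responses of Atf4 were small and opposite in sign, 0.14 in WT and -0.15 in Arid5a-/-, with an interaction of -0.28 (limma, adjusted p = 0.0322); this call was lost without any of the 8 libraries in turn, and with no filter, no intensity trend or a replicate block. For the ATF4 target Asns the interaction was -0.46 (limma, adjusted p = 0.00877), from 0.36 in WT and -0.10 in Arid5a-/-.

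Among Erk outputs, Dusp6 gave -0.82 (limma, adjusted p = 0.00881), from 0.79 and -0.02, Ier3 gave -0.57 (limma, adjusted p = 0.00799), from 0.84 and 0.27, and Ccnd1 gave 1.04 (limma, adjusted p = 0.00174), from -1.30 and -0.26. Among IL-6 response genes, Timp1 gave -1.30 (limma, adjusted p = 9.0e-05), Osmr -0.69 (0.00247), Socs3 -0.80 (0.00277), Saa3 -1.54 (0.00157) and Junb -0.90 (0.00207). All 5 rose in WT, by 1.56, 1.17, 1.35, 2.09 and 1.22, and differed by 0.25, 0.49, 0.55, 0.55 and 0.31 in Arid5a-/-. Like Dusp6, Ier3 and Ccnd1, they were among the genes with the smallest p of their list for IL-6 in WT. The interaction subtracts that same WT response, so this choice favours an interaction of the opposite sign.

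The 4 genes nearest to Trib1 in profile all had an interaction of the same sign as that of Trib1, -0.54, and theirs passed. It was -0.69 for Sdc4 (limma, adjusted p = 0.00247), -0.42 for Stat3 (0.00542), -0.59 for Klf9 (0.00551) and -0.84 for C1galt1 (0.00515). Their responses were 0.75, 0.62, 0.62 and 0.91 in WT and 0.06, 0.20, 0.03 and 0.07 in Arid5a-/-, and they were chosen for a profile like that of Trib1, so the shared sign follows from the choice.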

How the results depend on the processing

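Of 240 alternative values for the 15 member results, 232 kept their direction and side of the threshold. Trib3 with IL-6 in WT turned to 0.01 after quantile normalization and 0.01 for its main transcript, and ranged from -0.06 to 0.00 with libraries left out. Trib1 between the genotypes with IL-6 turned to -0.06 after quantile normalization and ranged from -0.01 to 0.07, Trib1 and Trib2 with IL-6 in Arid5a-/- ranged from 0.08 to 0.37 and from -0.08 to 0.22, Trib2 with IL-6 in WT from -0.29 to -0.03, and the Trib1 interaction from -0.69 to -0.40 (adjusted p 0.021 to 0.167) with libraries left out. The replicate numbers did not pair the libraries (r of deviations -0.097 to 0.055); with a replicate block, Trib1 with IL-6 in WT stayed at 0.77 (limma, adjusted p = 0.0034) and the block changed no call of a member, while genes called fell from 2150 to 1696 for IL-6 in WT and from 830 to 564 in the interaction. Without the filter the interaction called 521 genes, and IL-6 in Arid5a-/- called 7, or 5 at a filter of 5 FPKM, against 3. With libraries left out, genes called for IL-6 in WT ranged from 1165 to 1774, in the interaction from 383 to 523 and for IL-6 in Arid5a-/- from 0 to 4. At equal total FPKM 34.8% of the calls for IL-6 in WT were higher, against 52.8%, and 55.1% in the interaction, against 41.9%. Of 280 list counts, 17 moved by over 1.5 times. With 2 libraries per group, small IL-6 responses could not be seen. The printed intervals are not adjusted for the number of genes. A response whose interval left out 0 could thus still fail the test, as for Trib3 with IL-6 in Arid5a-/-.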
